A study of Mus musculus with 18 samples.

Results

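The genes described here are Cd14, Tlr2, Tlr4, Ly96, Lyz2, Cd68, Mrc1 and Cd300lb, which encode innate immune receptors or proteins best known from macrophages and their relatives. They were chosen by name, with earlier results of these data in view, and are 8 of the 32285 genes in the count table. Their levels and fold changes are therefore a description, and no p-value is given for any of them. The libraries came from sorted fibroblasts of the synovium, the soft tissue that lines a joint, taken from mouse paws. The genotype was WT in all 18 libraries, and 6 groups of 3 libraries were compared. Naive mice had no arthritis, and their cells were left unstimulated or given 10 ng/mL fibroblast growth factor 2 (FGF2, a growth factor that makes fibroblasts divide), osteopontin at 50 ng/mL (OPN, a protein that cells secrete and that binds integrins and CD44), or both factors together. Cells of mice with serum-induced arthritis (STIA, started by injecting serum of K/BxN mice) were left unstimulated or given 50 ng/mL OPN. Stimulation lasted 3 days. The age, sex and strain of the mice, the sort gates and the time unstimulated cells spent in culture were not given in the sources used here. Nothing says that replicates were separate mice or cultures, so a p-value measures only the spread between these libraries, which may be technical.

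Toll-like receptors recognise microbial molecules and signal through adaptor proteins such as MyD88 to NF-kappaB, which switches on cytokine and chemokine genes. CD14 takes bacterial lipopolysaccharide from the serum protein LBP and passes it to TLR4 and its partner MD-2, the product of Ly96. TLR2 pairs with TLR1 or TLR6 to bind bacterial lipopeptides. Lyz2 encodes lysozyme, which cuts bacterial cell walls, Cd68 a glycosylated membrane protein of lysosomes, Mrc1 the mannose receptor CD206, and Cd300lb an activating receptor of the CD300 family. Synovial fibroblasts are known to express several Toll-like receptors, whereas Lyz2, Cd68, Mrc1 and Cd300lb are mostly used as marks of myeloid cells.

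Promoter sequence was read for Cd300lb and Mrc1, which stood furthest below FGF2 alone when OPN was added, for Cd68, which stayed as high under both factors, and for Tlr2, which was lower with FGF2. Promoters from RefSeq's GRCm38.p6 table were searched for 5 of the 8 genes, and Cd14 was left out of the search. In the 250 bases before each RefSeq start, both strands were searched for an AP-1 site (TGANTCA), an ETS core (CCGGAA), the PU.1 core GAGGAA and an NF-kappaB site. The ETS and PU.1 cores share the letters GGAA but cannot coincide on one strand. The sequences run 5′ to 3′ on the gene's strand, cover the bases outside the gene's deposited span, and carry each match in capitals.
Cd300lb, chr11:114934387-114934621, minus strand: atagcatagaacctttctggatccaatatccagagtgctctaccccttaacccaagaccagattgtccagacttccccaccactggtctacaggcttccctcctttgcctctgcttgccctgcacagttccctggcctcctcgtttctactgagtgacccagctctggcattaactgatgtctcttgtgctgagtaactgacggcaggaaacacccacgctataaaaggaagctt
Mrc1, chr2:14229164-14229391, plus strand: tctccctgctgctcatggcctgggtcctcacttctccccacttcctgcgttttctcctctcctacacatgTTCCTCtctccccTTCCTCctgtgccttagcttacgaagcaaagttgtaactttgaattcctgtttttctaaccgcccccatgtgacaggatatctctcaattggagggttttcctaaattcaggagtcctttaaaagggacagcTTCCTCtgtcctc
Cd68, chr11:69666171-69666420, minus strand: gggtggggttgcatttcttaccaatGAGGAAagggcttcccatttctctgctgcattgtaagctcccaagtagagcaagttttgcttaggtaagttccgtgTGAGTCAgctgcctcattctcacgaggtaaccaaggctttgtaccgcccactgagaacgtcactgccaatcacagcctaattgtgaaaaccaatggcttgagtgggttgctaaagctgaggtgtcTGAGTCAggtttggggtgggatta
Tlr2, chr3:83841768-83841858, minus strand: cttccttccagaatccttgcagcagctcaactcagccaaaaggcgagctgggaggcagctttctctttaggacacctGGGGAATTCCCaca
Mrc1 held 3 copies of the PU.1 core, at 180, 167 and 35 bases before the start. Cd68 held 2 AP-1 sites, 149 and 24 bases before the start, and 1 PU.1 core. The capitals in Tlr2 are 2 overlapping NF-kappaB matches. No match to these 4 patterns was found in Cd300lb, or in Lyz2, whose sequence is not printed. Over all 32851 promoters of the table, 6.7% held the AP-1 pattern, 12% the ETS core, 23.3% the PU.1 core and 3.9% the NF-kappaB pattern. A match is a run of letters and was not tested for binding.

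Libraries held 27527043 to 40357342 counts, so that 3 counts corresponded to 0.0743 to 0.109 CPM, the count scaled to a fixed library total. The label of fibroblasts fitted the data. All 11 fibroblast markers were detected, and their summed level ran from 21351 to 80351 CPM over the 18 libraries. The sum moved with the treatment: it was 71334 to 80351 CPM in unstimulated naive cells and 21351 to 23576 CPM with FGF2, where 6 of the 8 genes were higher, and its part in those results was not tested. With FGF2, 2 of the 11 fibroblast markers rose (Pdgfra and Vim) and 6 fell, where 29.1% of all tested genes rose and 28.1% fell. The largest fall was that of the collagen gene Col1a1, by 3.18 on the log2 scale (edgeR adjusted p = 3.72e-16). Some defining leukocyte genes were at or near 0. Counts in any library were at most 10 for Ptprc (CD45) and 3 for Spi1 (PU.1). They were at most 2 for Adgre1 (F4/80), Itgam and Tyrobp, and at most 1 for C1qa. Other genes of leukocytes were detected. Of 26 macrophage markers 8 had enough counts to test, and with FGF2 2 of them rose (Cd53 and Mertk) and 4 fell. Itgb2, a leukocyte integrin subunit, was 0.726 CPM unstimulated and 15.4 CPM with FGF2. The 8 genes themselves summed to 57.1 to 64.0 CPM without stimulation in naive cells, and to 163 to 180 CPM with FGF2. In whole-population RNA, fewer cells of a type and less RNA per cell cannot be told apart.

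Cd14 (ENSMUSG00000051439, GRCm38 chromosome 18, 36725067 to 36726798, minus strand) is the lipopolysaccharide co-receptor. It stood at 5.68, 6.70 and 5.70 CPM in the unstimulated naive libraries and at 42.9, 47.2 and 41.1 CPM with FGF2. With OPN it was 4.59, 3.50 and 2.84 CPM, and with both factors 14.4, 14.4 and 14.7 CPM. The FGF2 libraries were the highest of all, the libraries with both factors came next, and neither set overlapped any other group. FGF2 cells held 7.27 times the unstimulated level (log2 fold change 2.86 ± 0.12, SE, n = 3 libraries a group, as in all fold changes here). OPN cells held less than unstimulated cells, with a log2 fold change of -0.71 ± 0.13. Adding OPN to FGF2 left a 3.02-fold lower level than FGF2 alone (-1.60 ± 0.11), which was still 2.40 times the unstimulated level. STIA cells, at 6.94, 7.06 and 6.0 CPM, and STIA cells with OPN, at 5.83, 5.53 and 5.68 CPM, overlapped the unstimulated naive libraries.

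Tlr4 (ENSMUSG00000039005, chromosome 4, 66827584 to 66930284, plus strand) is the signalling receptor for lipopolysaccharide. Without stimulation the naive libraries held 30.6, 24.7 and 29.9 CPM, followed by 64.7, 68.2 and 65.5 CPM with FGF2, 36.6, 36.9 and 34.4 CPM with OPN and 66.5, 69.8 and 51.5 CPM with both. Both groups given FGF2 were high and overlapped each other, and the OPN libraries lay between them and the unstimulated cells. The log2 fold change was 1.22 ± 0.09 with FGF2, 0.34 ± 0.09 with OPN and 1.14 ± 0.09 with both. Unlike Cd14, Tlr4 differed little between FGF2 plus OPN and FGF2 alone (-0.08 ± 0.09). STIA cells ranged from 27.7 to 28.1 CPM and STIA cells with OPN from 25.4 to 28.2 CPM, inside or close to the naive range.

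Ly96 (ENSMUSG00000025779, chromosome 1, 16688051 to 16709611, plus strand) encodes MD-2, without which TLR4 does not bind lipopolysaccharide. With FGF2 and with both factors it moved least of the 3 genes of the complex, but with OPN it moved more than Tlr4. Unstimulated naive libraries held 3.75, 2.76 and 3.51 CPM, FGF2 libraries 5.10, 6.11 and 5.09, OPN libraries 4.95, 5.17 and 5.05, and libraries with both factors 5.17, 4.89 and 4.58 CPM. The 3 stimulated naive groups lay above the unstimulated one and overlapped each other. Their log2 fold changes were 0.70 ± 0.17, 0.59 ± 0.17 and 0.54 ± 0.17, so the 2 factors together gave no more than either alone. STIA libraries spread from 2.45 to 4.26 CPM, and STIA libraries with OPN from 2.78 to 3.77 CPM, across the unstimulated naive range. Without naive replicate 2, the lowest unstimulated library for both genes, the log2 fold change with OPN was 0.47 for Ly96 and 0.25 for Tlr4, and neither passed the threshold. The same was true of Ly96 with both factors, at 0.42.

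Tlr2 (ENSMUSG00000027995, chromosome 3, 83836272 to 83841767, minus strand), the lipopeptide receptor, went the other way from Tlr4. It was highest in the unstimulated naive libraries, at 18, 16.6 and 17.2 CPM, and lowest with FGF2, at 7.93, 7.0 and 6.06 CPM. OPN libraries held 13.3, 13.0 and 12.3 CPM and libraries with both factors 14.4, 14.4 and 14.3 CPM. No neighbouring groups overlapped in the order of its 6 levels. FGF2 cells were 2.47-fold lower than unstimulated cells (log2 fold change -1.31 ± 0.10), OPN cells 1.34-fold lower (-0.42 ± 0.10) and cells with both 1.20-fold lower (-0.26 ± 0.09). The level with both factors was thus 2.06 times that with FGF2 alone (1.04 ± 0.10). When libraries were scaled by their totals alone, the difference between both factors and no stimulation was -0.12 and no longer passed. It was also lost without naive replicate 1 or 3 and without replicate 1 or 2 of the libraries with both factors, with values of -0.27 to -0.24.

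**Figure D1:**
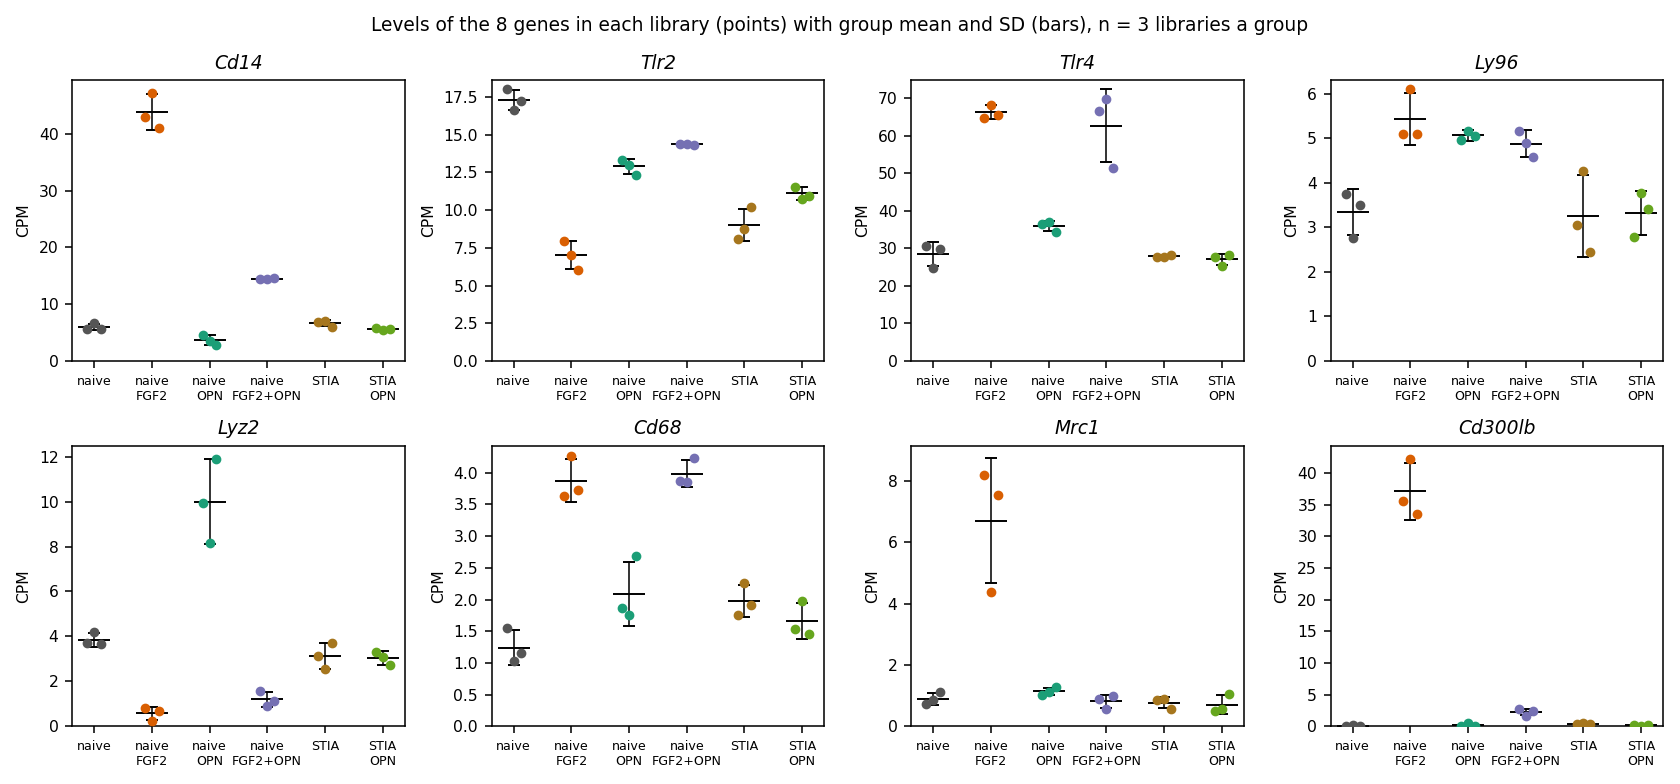
CPM of the 8 genes (vertical axes, linear from 0, with a scale of its own in each panel) in the 6 groups; points are single libraries, and bars give the mean and SD of 3 libraries. Cd14, Mrc1 and Cd300lb peak in naive cells with FGF2 and are lower when OPN is added, whereas Tlr2 and Lyz2 are lowest with FGF2.

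Lyz2 (ENSMUSG00000069516, chromosome 10, 117277331 to 117282321, minus strand), a lysozyme gene, was lower with FGF2 and higher with OPN, the reverse of Cd14. Unstimulated naive libraries held 3.72, 4.22 and 3.65 CPM. FGF2 libraries held 0.800, 0.231 and 0.696 CPM, whereas OPN libraries held 9.92, 8.16 and 11.9 CPM. With both factors the level was 1.56, 0.897 and 1.14 CPM, above every FGF2 library and below every unstimulated one. FGF2 cells were thus 6.64-fold lower than unstimulated cells (log2 fold change -2.73 ± 0.28) and OPN cells 2.58-fold higher (1.37 ± 0.20). FGF2 plus OPN stood 8.17-fold below OPN alone (-3.03 ± 0.23) and 2.10-fold above FGF2 alone (1.07 ± 0.31). The last difference was 0.81 and did not pass without replicate 1 of the libraries with both factors. The neighbouring lysozyme gene Lyz1 had at most 2 counts in any library.

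Cd68 (ENSMUSG00000018774, chromosome 11, 69664213 to 69666153, minus strand), whose product sits in lysosomal membranes, followed Tlr4. Its levels were 1.55, 1.03 and 1.15 CPM without stimulation, 3.63, 4.26 and 3.72 CPM with FGF2, 1.86, 1.75 and 2.68 CPM with OPN and 3.87, 3.85 and 4.23 CPM with both. The 2 groups given FGF2 overlapped each other and lay above all other libraries. The log2 fold change was 1.63 ± 0.20 with FGF2, 0.73 ± 0.21 with OPN and 1.67 ± 0.20 with both. The OPN difference was 0.61 without naive replicate 2 and 0.53 without OPN replicate 3, and passed in neither case.

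Mrc1 (ENSMUSG00000026712, chromosome 2, 14229392 to 14332057, plus strand), the mannose receptor, was high in a single group. FGF2 libraries held 8.20, 4.39 and 7.54 CPM, the second of them well below the other two. Every other library lay between 0.513 and 1.27 CPM, including those with both factors, at 0.904, 0.565 and 0.979 CPM. FGF2 cells were 7.49-fold higher than unstimulated cells (log2 fold change 2.91 ± 0.28), and cells with both factors were 8.13-fold lower than FGF2 cells (-3.02 ± 0.27). Between both factors and no stimulation the difference was -0.12 ± 0.33, and it was 0.02 when libraries were scaled by totals alone. Leaving out FGF2 replicate 2 did not lower the FGF2 fold change, which stayed between 2.74 and 3.13 whichever library was left out.

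Cd300lb (ENSMUSG00000063193, chromosome 11, 114922781 to 114934386, minus strand), the activating CD300 receptor, had the widest range. In unstimulated naive cells it had 1, 6 and 3 counts, or 0.0316, 0.213 and 0.104 CPM, close to the limit of detection. In FGF2 cells it had 1068, 1276 and 1109 counts, or 35.6, 42.2 and 33.6 CPM. The ratio of the summed counts, scaled to the libraries, was 328, with a 95% counting interval of 178 to 685. Libraries with both factors held 107, 51 and 78 counts, or 2.69, 1.69 and 2.46 CPM. They lay 16.1-fold below FGF2 alone (log2 fold change -4.01 ± 0.23), and the scaled ratio to unstimulated cells was 20.6 (11 to 43.5). OPN libraries held 3, 19 and 1 counts, and their ratio to unstimulated cells was 1.88 (0.860 to 4.42), and the log2 fold change was -0.93 without OPN replicate 2. Cd300lb passed the filter on low counts only through the groups in which it was high, so it had to differ between groups. The intervals cover counting error only.

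**Figure D2:**
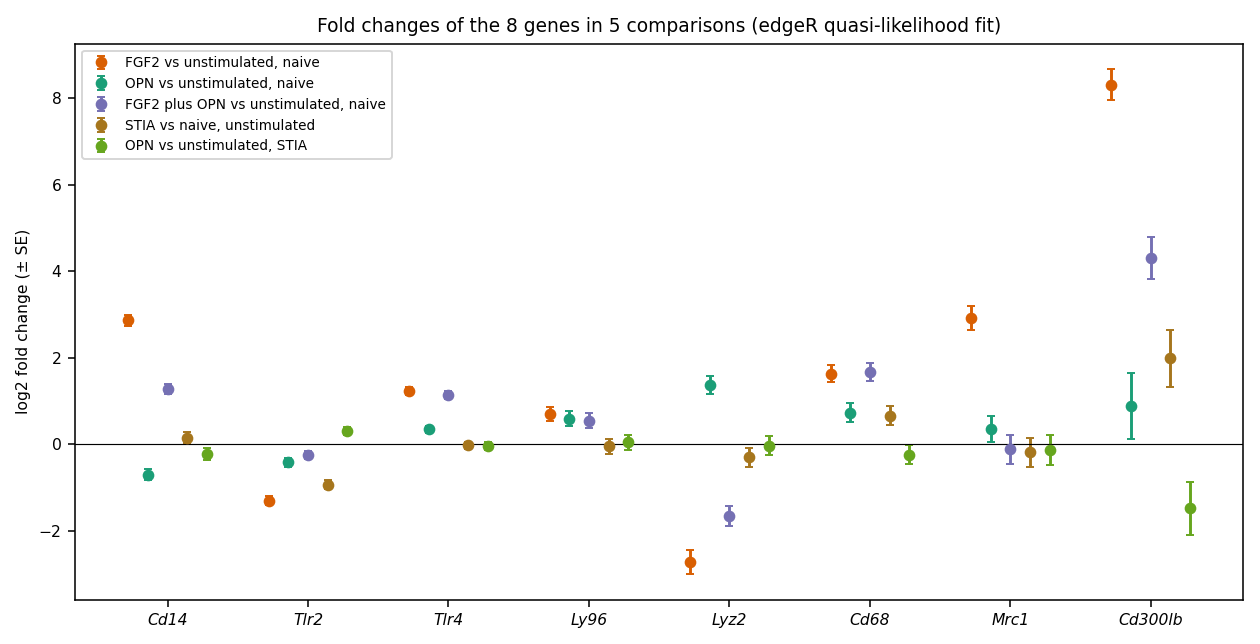
Log2 fold changes (vertical axis, with SE as bars) of the 8 genes in 5 comparisons, from the fit over all 18 libraries. FGF2 stands away from 0 for all 8 genes, from -2.73 for Lyz2 to 8.31 for Cd300lb, and OPN in STIA cells stays between -1.48 and 0.30.

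Counting the 8 genes against the threshold describes how they were chosen and is no evidence about them. With FGF2, 6 were higher and 2 lower at an edgeR adjusted p below 0.05, where 57.1% of the 15072 tested genes were called, 29.1% higher and 28.1% lower. With OPN, 4 were higher, 2 lower and 2 did not pass, against a background of 31.7% (15.2% higher, 16.5% lower). With both factors, 5 were higher, 2 lower and 1 did not pass, against 49.8% (23.7% higher, 26.1% lower). The median log2 fold change of the 8 was 1.42, 0.47 and 0.84 in these comparisons, and that of all tested genes 0.01, 0.00 and -0.01. All 8 passed the low-count filter in this fit.

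OPN and FGF2 did not add up on the log scale for most of the 8. Against OPN alone, FGF2 plus OPN was higher for Cd14, Tlr4, Cd68 and Cd300lb and lower for Lyz2, with 3 genes not passing, where 56.5% of all genes were called (27.1% higher, 29.5% lower). The effect of FGF2 on Cd14 was 1.97 ± 0.12 with OPN present and 2.86 ± 0.12 without it. On Cd300lb it was 3.42 ± 0.40 with OPN and 8.31 ± 0.36 without, both against groups with few counts. Without OPN replicate 2 the first value was 5.23, and the interaction term of Cd300lb was -3.08 in place of -4.89. On Mrc1 it was -0.47 ± 0.31 with OPN, against 2.91 ± 0.28 without, and on Tlr2 0.16 ± 0.10 against -1.31 ± 0.10. For Lyz2 the effects were close, at -3.03 ± 0.23 and -2.73 ± 0.28. The interaction term, which is the difference between these 2 effects, was negative for 6 of the 8 genes and positive for Tlr2, and did not pass for Lyz2 (-0.30 ± 0.39). Here 51.2% of all genes were called, 24.1% higher and 27.2% lower. The term for Cd68, -0.69 ± 0.28, was past the threshold by little: it was lost with library totals, with no low-count filter, with limma-voom and with a replicate block. It was also lost without naive replicate 2 or 3, FGF2 replicate 2 or 3, OPN replicate 3, or replicate 1 or 2 of both factors. Set directly against FGF2 alone, both factors together left Cd14, Mrc1 and Cd300lb lower, Tlr2 and Lyz2 higher and 3 genes not past the threshold, with a background of 58.4% (27.3% higher, 31.2% lower). These comparisons share libraries, so their values are given side by side and not as separate evidence.

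**Figure D3:**
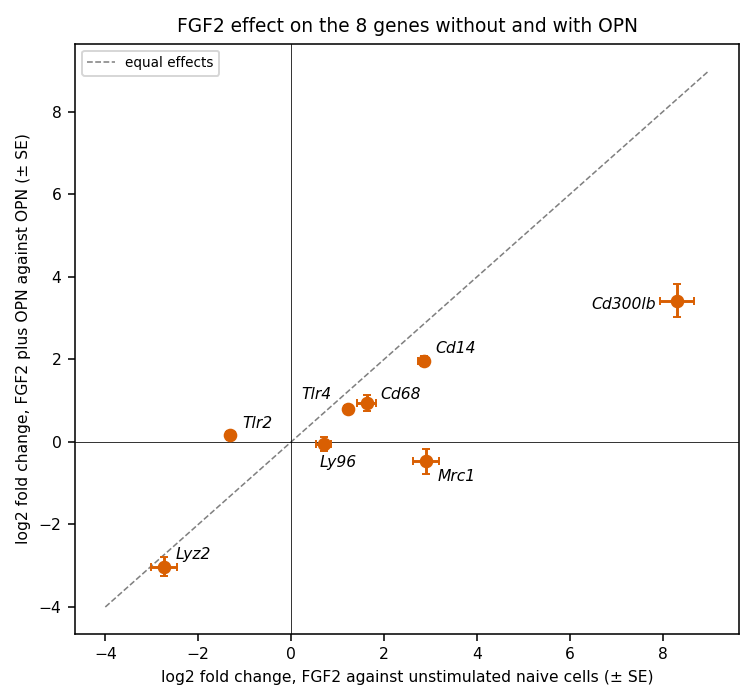
FGF2 effect on each of the 8 genes as log2 fold change with SE, without OPN (horizontal axis) and with OPN (vertical axis); the dashed line marks equal effects. Lyz2 lies near the line, Mrc1 and Cd300lb lie far below it, and Tlr2 lies above it.

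The genes around the receptors were taken from lists of the pathway. Lbp, which hands lipopolysaccharide to CD14, fell with FGF2 while Cd14 and Tlr4 were higher: from 43.0 ± 3.68 CPM (SD, n = 3) to 1.76 ± 1.18 CPM, a log2 fold change of -4.62 ± 0.37 (edgeR adjusted p = 1.10e-07). With both factors it stood at 45.9 ± 7.19 CPM, near the unstimulated level, and its interaction term was 4.99 ± 0.47 (edgeR adjusted p = 1.02e-06). Both partners of TLR2 fell with FGF2, as Tlr2 was lower: Tlr6 by 1.55 on the log2 scale (edgeR adjusted p = 2.34e-09), and the scarce Tlr1 by 2.10 (edgeR adjusted p = 0.000299). Tlr5, the flagellin receptor, fell by 3.35 on the log2 scale (edgeR adjusted p = 2.10e-12). Of 18 further Toll-like receptors, co-receptors and chaperones, 11 could be tested, and with FGF2 2 rose and 6 fell, where 57.1% of all genes were called. One of the 2 that rose was Tlr9, a receptor for microbial DNA, by 2.28 ± 0.94, and its call was lost in 10 of 24 other settings. The other was Cnpy4, a chaperone of TLR4. With OPN, 1 of the 11 rose and 2 fell, and with both factors likewise 1 rose and 2 fell, which became 3 and 1 with library totals. These shares lie below the 31.7% and 49.8% of all genes called, and no test of the list was made. Cd36, a scavenger receptor that assists TLR2, had at most 10 counts in any library.

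Myd88, the adaptor used by most Toll-like receptors, fell with FGF2 from 35.2 ± 1.10 to 20.1 ± 0.807 CPM (log2 fold change -0.81 ± 0.08, edgeR adjusted p = 3.22e-09). It was 32.9 ± 2.76 CPM with both factors. Tirap, which bridges TLR2 and TLR4 to MyD88, rose by 0.47 ± 0.11 (edgeR adjusted p = 0.000644), and the downstream factor Irf5 rose by 1.10 ± 0.14 (edgeR adjusted p = 4.16e-07). Ticam1, the adaptor TRIF of the second TLR4 branch, changed by -0.24 ± 0.08 (edgeR adjusted p = 0.0154), a call lost with library totals and without naive replicate 2 or FGF2 replicate 1, while its helper Ticam2 had too few counts to test. Of 23 tested adaptors, kinases and transcription factors, 10 rose and 4 fell with FGF2, a share called that was close to the 57.1% of all genes. With OPN, 1 rose and 7 fell, where 31.7% of all genes were called, among them Nfkb1 by 0.57 and Rela by 0.38 on the log2 scale (edgeR adjusted p = 3.35e-07 and 5.27e-06), which encode subunits of NF-kappaB. With both factors 4 rose and 3 fell, where 49.8% of all genes were called. That split became 11 and 1 under scaling by library totals, which shifts the median of all genes by 0.14.

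Of 18 feedback inhibitors of the pathway, all tested, 1 rose and 11 fell with FGF2 (29.1% and 28.1% of all genes). With OPN 1 rose and 13 fell (15.2% and 16.5%). With both 4 rose and 3 fell (23.7% and 26.1%), or 6 and 1 with library totals. The median log2 fold changes were -0.36, -0.80 and -0.08, beside the medians near 0 of all genes. Irak3, which blocks signalling below MyD88, was 23.4 ± 0.986 CPM unstimulated, 7.35 ± 0.503 with FGF2, 15.5 ± 0.138 with OPN and 23.5 ± 0.674 with both (edgeR adjusted p = 3.53e-14 for FGF2 and 3.78e-06 for OPN). Bcl3, an atypical inhibitor of NF-kappaB, fell by 3.79 with FGF2 and by 1.90 with OPN on the log2 scale (edgeR adjusted p = 2.00e-10 and 1.64e-06), and was 33.3 ± 4.15 CPM with both against 37.2 ± 3.43 unstimulated. Zfp36, which destabilises cytokine mRNAs, fell by 1.77 with OPN and rose by 1.00 with both factors (edgeR adjusted p = 8.72e-15 and 1.35e-11). The single feedback gene that rose with FGF2 was Il1rl1, the IL-33 receptor, by 2.25 ± 0.06 (edgeR adjusted p = 4.73e-18).

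Inducible targets of Toll-like receptors moved both ways with FGF2. Of 15 tested, 3 rose and 8 fell, where 29.1% of all genes rose and 28.1% fell. With OPN none rose and 7 fell (15.2% and 16.5% of all genes), and with both factors 1 rose and 8 fell (23.7% and 26.1%). The medians of the 15 were -1.96, -0.67 and -0.45. The 3 that rose with FGF2 were the monocyte chemoattractant Ccl2, from 57.2 ± 2.92 to 310 ± 106 CPM (log2 fold change 2.44 ± 0.20, edgeR adjusted p = 7.14e-08), its relative Ccl7 by 0.72 ± 0.18, and Ptgs2, which makes prostaglandins, by 0.63 ± 0.19, a call lost without FGF2 replicate 1 or 3. Cxcl5, a neutrophil chemoattractant, went from 155 ± 9.08 to 1.02 ± 0.536 CPM with FGF2 (log2 fold change -7.24 ± 0.39, edgeR adjusted p = 1.79e-09). Il1rn, the IL-1 receptor antagonist, fell by 4.83 and Il6 by 3.73 on the log2 scale (edgeR adjusted p = 9.68e-09 and 1.72e-09). With OPN, Il6 fell by 3.51 and the chemokine Cxcl1 by 2.46 (edgeR adjusted p = 3.85e-08 and 1.53e-08). In a list of other pattern recognition receptors and their adaptors, 1 of 13 tested genes rose (the adaptor Mavs) and 6 fell with FGF2, and the share called was close to the 57.1% of all genes. Nod1, a sensor of bacterial peptidoglycan, fell by 1.23 and Ifih1, a sensor of double-stranded RNA, by 1.30 on the log2 scale (edgeR adjusted p = 1.43e-11 and 1.76e-08).

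**Figure D4:**
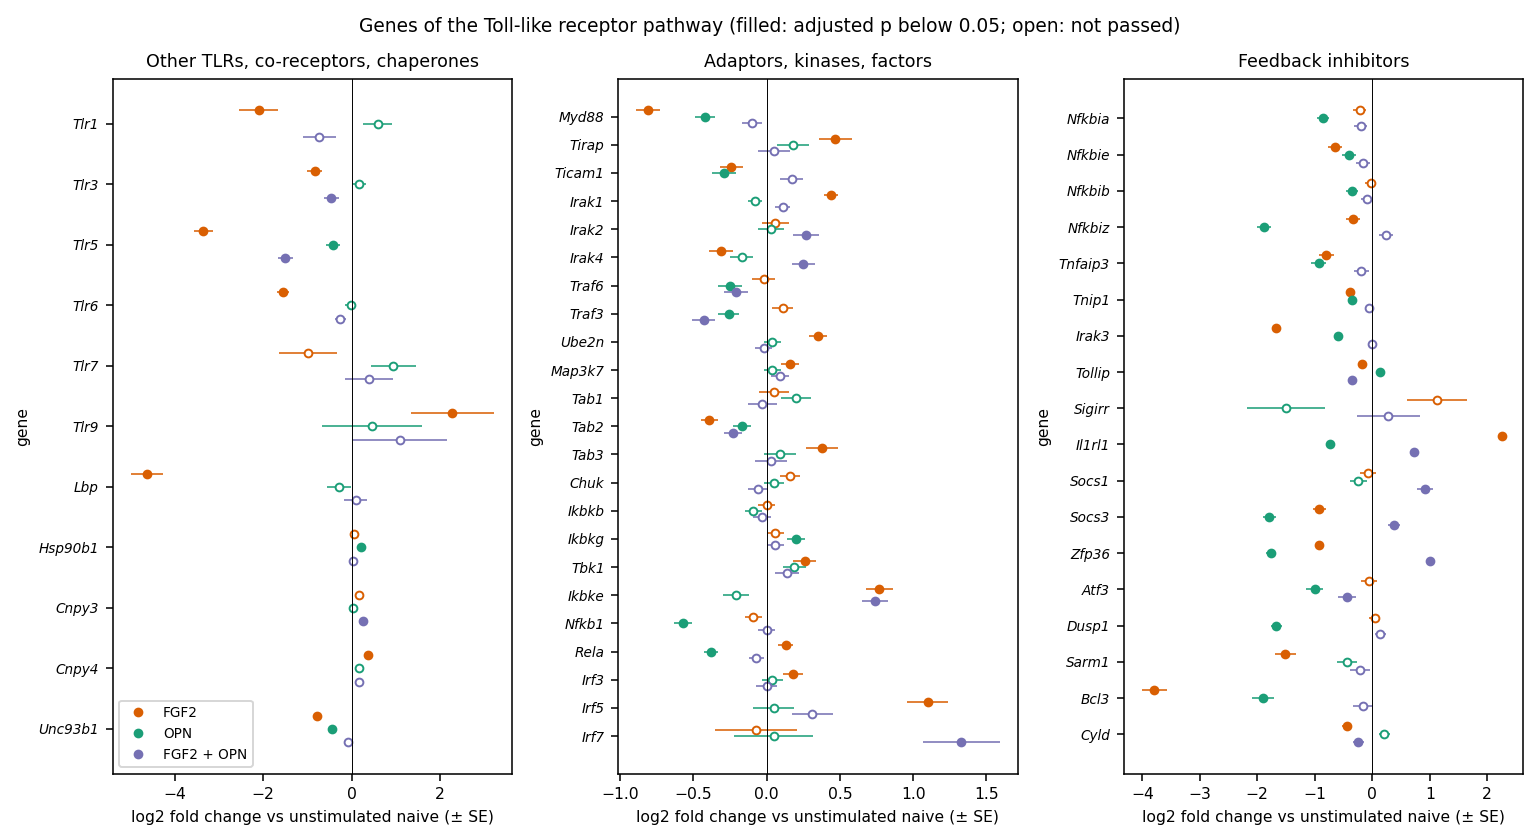
Log2 fold changes with SE (horizontal axes) against unstimulated naive cells for tested genes of 3 Toll-like receptor lists, with FGF2, OPN or both; filled points passed an adjusted p of 0.05 and open points did not. Lbp lies at -4.62 with FGF2 and near 0 with both factors, and the feedback inhibitors lie mostly left of 0 with OPN.

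Relatives of Mrc1 and Cd68 were measured beside them. Mrc2 (Endo180), the mannose receptor family member typical of fibroblasts, was 771 ± 40.2 CPM unstimulated and 994 ± 53.7 CPM with FGF2 (log2 fold change 0.37 ± 0.06, edgeR adjusted p = 1.06e-05). Per length it far exceeded Mrc1, at 564 against 4.01 TPM, a scaled count per transcript length, with FGF2. In the scavenger and mannose receptor family, 6 of 12 tested genes rose with FGF2 and 1 fell, a share called close to the 57.1% of all genes. The one that fell was Scara5, a ferritin receptor, from 36.5 ± 3.02 to 0.567 ± 0.408 CPM (log2 fold change -6.02 ± 0.51, edgeR adjusted p = 2.03e-07). Cd93, a receptor of endothelial and myeloid cells, rose by 4.95 ± 0.29 and the collectin Colec12 by 1.63 ± 0.17 (edgeR adjusted p = 9.26e-13 and 6.64e-07). With both factors 5 of these genes rose and 4 fell, or 6 and 1 with library totals, where 49.8% of all genes were called in the main fit. The lysosomal membrane genes Lamp1 and Lamp2, relatives of Cd68, moved little: with FGF2 Lamp1 rose by 0.31 ± 0.06 and Lamp2 fell by 0.34 on the log2 scale (edgeR adjusted p = 0.000240 and 0.000203).

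Partners of CD300LB in signalling were not all detected. Tyrobp (DAP12), the adaptor through which this receptor is known to signal in myeloid cells, had at most 2 counts in any library. The other CD300 genes counted here had at most 4 counts each, and Cd300c and Cd300ld had none in any library. Fcer1g, an alternative adaptor, had a log2 fold change of -2.96 ± 0.92 with FGF2 (edgeR adjusted p = 0.00846), a wide SE beside that of Syk. Syk, the kinase below these adaptors, rose from 13.9 ± 1.37 to 71.0 ± 12.5 CPM with FGF2 (log2 fold change 2.35 ± 0.20, edgeR adjusted p = 7.24e-08) and stood at 22.4 ± 4.38 CPM with both factors, below FGF2 alone (-1.66 ± 0.19, edgeR adjusted p = 2.72e-06). Of the 13 genes of this list, 4 were tested, of which 2 rose and 2 fell with FGF2, where 57.1% of all genes were called.

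Markers of other cells were set beside these results, and their part in them was not tested. Of 26 macrophage markers, 12 had at most 3 counts in every library and Vsig4 had none. Their summed level was 55.4 to 61.6 CPM in unstimulated naive cells, 33.2 to 52.2 with FGF2, 56.4 to 76.5 with OPN, 101 to 132 with both, 22.6 to 24.8 in STIA cells and 30.9 to 32.2 CPM in STIA cells with OPN. The sum was lower with FGF2, where 6 of the 8 genes were higher. Of the 8 macrophage markers with enough counts to test, 2 rose and 4 fell with FGF2, where 29.1% of all genes rose and 28.1% fell. Cd53, a leukocyte tetraspanin, rose by 5.21 ± 0.40, from 0.111 to 4.31 CPM (edgeR adjusted p = 1.24e-10). Unstimulated, Cd53 was close to the limit of detection. It passed the filter on low counts only through groups in which it was higher, so it had to differ between groups. Mertk, a receptor for dying cells, rose by 3.41 ± 0.20, from 1.31 to 14 CPM (edgeR adjusted p = 1.27e-12). Csf1r, the macrophage growth factor receptor, fell by 2.59 on the log2 scale, from 2.92 to 0.478 CPM (edgeR adjusted p = 1.90e-09). Of 19 markers of neutrophils, mast cells, dendritic cells and lymphocytes, 5 were at 0 in every library, namely S100a9, Retnlg, Cd3e, Cd3d and Nkg7. Ly6g, a neutrophil antigen gene, was nonetheless 2.10 ± 0.580 CPM with FGF2 and 0.0116 CPM unstimulated. The 9 endothelial markers summed to 22.5 to 24.4 CPM unstimulated and 36.6 to 53.3 CPM with FGF2. Their sum was 21.5 to 27.4 CPM with OPN and 14.7 to 16.5 CPM with both, the lowest group. It was 23.3 to 30.1 CPM in STIA cells and 25.7 to 27.3 CPM in STIA cells with OPN. The 11 pericyte, Schwann, muscle and keratinocyte markers summed to 30.9 to 32.7 CPM unstimulated and 52.8 to 96.5 CPM with FGF2. They reached 32.2 to 34.0 CPM with OPN, 70.3 to 75.9 with both, 88.7 to 102 in STIA cells and 55.0 to 62.5 in STIA cells with OPN.

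**Figure D5:**
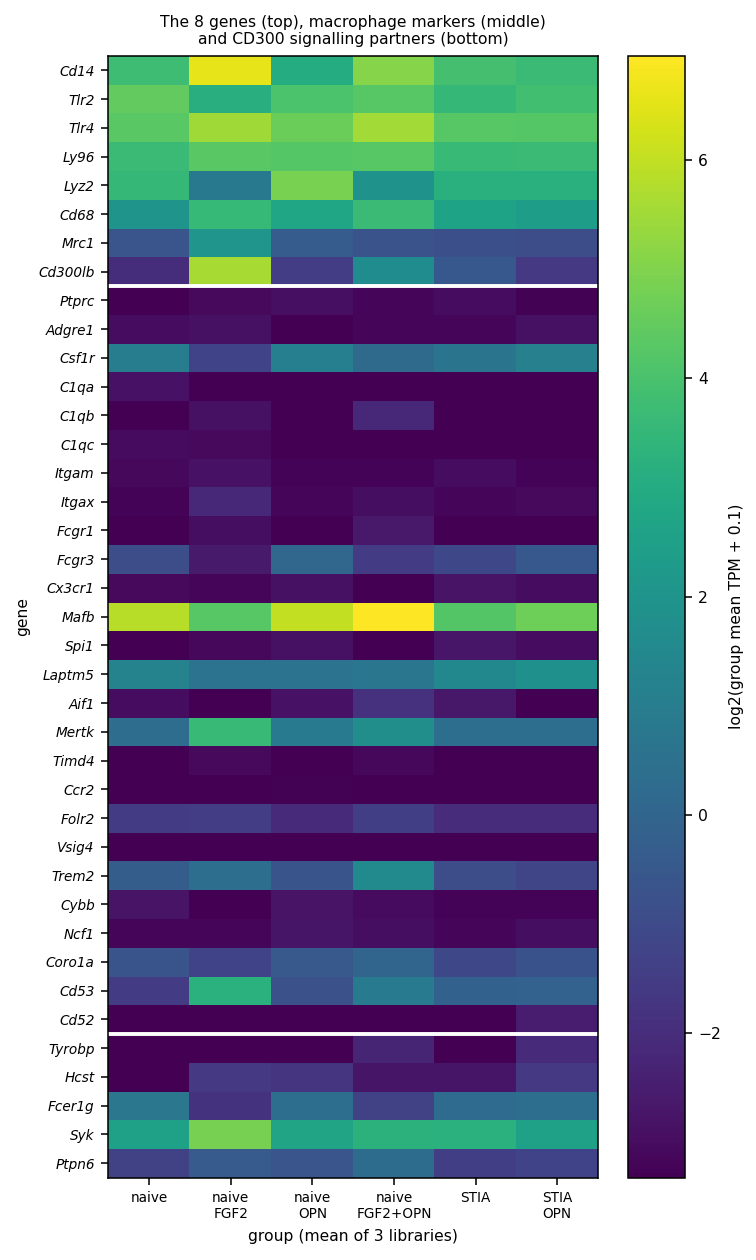
Group mean TPM on a log2 scale with 0.1 added (colour) for the 8 genes, 26 macrophage markers and 5 CD300 signalling partners (rows) in the 6 groups (columns). Ptprc, Adgre1, C1qa, Spi1 and Tyrobp stay dark in all groups, while Cd14, Cd300lb, Mertk and Cd53 are brightest with FGF2.

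Against unstimulated naive cells, STIA cells were higher for Cd68 and Cd300lb and lower for Tlr2, and 5 genes did not pass, where 36.8% of all genes were called (18.6% higher, 18.2% lower), a share like that among the 8. Tlr2 was 8.07, 8.77 and 10.2 CPM, 1.92-fold below naive cells (log2 fold change -0.94 ± 0.10) and clear of every naive library. Cd68 was 1.76, 2.26 and 1.92 CPM, a difference of 0.66 ± 0.22 that did not pass without naive replicate 2 or 3 or STIA replicate 2. Cd300lb had 16, 13 and 13 counts, a scaled ratio of 4.05 (2.00 to 9.06) whose call was lost without naive replicate 1 or 3 or without any 1 of the STIA libraries. Mrc1 was 0.854, 0.909 and 0.568 CPM and Lyz2 3.14, 2.55 and 3.73 CPM, both across the naive range. Around them, 1 of the 18 feedback inhibitors rose and 10 fell, and 1 of the 15 tested target genes rose and 8 fell. Lbp fell by 2.63 and Irak3 by 0.92 on the log2 scale (edgeR adjusted p = 2.51e-05 and 1.10e-08).

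OPN moved none of the 8 genes past the threshold in STIA cells, where 2.17% of all genes were called (1.15% higher, 1.02% lower). That background was itself unsteady: 327 genes passed, and between 38 and 615 did when 1 library was left out, with 38 without STIA replicate 1 and 615 without FGF2 replicate 2. Lyz2 was 3.33, 3.10 and 2.71 CPM with OPN, level with unstimulated STIA cells (-0.04 ± 0.22), whereas in naive cells OPN went with 2.58 times the level. Tlr2 was 11.5, 10.7 and 10.9 CPM, all above the unstimulated STIA libraries, at 0.30 ± 0.10. Cd68 was 1.54, 1.98 and 1.45 CPM and Mrc1 0.513, 0.559 and 1.06 CPM, both overlapping unstimulated STIA cells. Cd300lb had 5, 3 and 7 counts, below each unstimulated STIA library, with a scaled ratio of 0.352 (0.181 to 0.648), and it passed the threshold only when no low-count filter was used. The test of the difference between the OPN effects in STIA and naive cells was negative for Tlr4 (-0.38 ± 0.13), Lyz2 (-1.41 ± 0.30) and Cd68 (-0.97 ± 0.30), positive for Tlr2 (0.72 ± 0.14), and did not pass for the other 4 genes. In that comparison 22.3% of all genes were called, 11.8% higher and 10.5% lower. The Tlr4 value was lost in 9 and the Cd68 value in 5 of 24 other settings, both of them without naive replicate 2 and without STIA replicate 2. Cd68 was also lost without naive replicate 3, naive OPN replicate 3 or STIA OPN replicate 3, and Tlr4 with limma-voom and without any other STIA library, naive OPN replicate 1 or 2, or STIA OPN replicate 1 or 2. Among context genes Irak3 rose by 0.34 ± 0.08 with OPN in STIA cells (edgeR adjusted p = 0.0274), against a fall in naive cells, and the difference was 0.94 ± 0.11 (edgeR adjusted p = 2.64e-06). The rise in STIA cells was lost without replicate 1 or 2 of either STIA group.

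Levels were compared between genes only per length, in TPM. In unstimulated naive cells Tlr2 (22.2 TPM) and Tlr4 (19.9 TPM) overlapped at the top, followed by Cd14 (13.5), Ly96 (12.7) and Lyz2 (11.4), whose neighbours also overlapped. Cd68 stood at 3.84, Mrc1 at 0.546 and Cd300lb at 0.153 TPM. With FGF2 the order became Cd14 (95.6 TPM), then Cd300lb (48.1) and Tlr4 (45.1), which overlapped, then Ly96 (20.1), Cd68 (11.7), Tlr2 (8.80), Mrc1 (4.01) and Lyz2 (1.67). The lowest of the 8 genes in unstimulated cells was thus among the highest with FGF2, and Lyz2 went from mid-order to last.

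As a description over the 18 libraries, which share the 6 treatments, Cd14 correlated with Cd300lb at r = 0.96 and with Lyz2 at r = -0.94, and Tlr4 with Cd68 at r = 0.88. Tlr2 correlated negatively with Mrc1 and Cd300lb, both at r = -0.64. Among 11217 or 11218 genes compared with each member, the nearest pattern to Cd14 was that of Aig1 (r = 0.991), with Spry2 and Itgb2 next (both 0.989). Itgb2, a leukocyte integrin subunit, was 0.726 CPM unstimulated, 15.4 with FGF2 and 3.83 with both. For Cd300lb they were Ank (0.986), Vim and Por (both 0.985), for Tlr4 Cacna2d1 (0.991), Flrt1 (0.980) and Rgs17 (0.977), and for Mrc1 Klhl21 (0.952) and Nt5dc3 (0.941). Tlr2 was closest to Lrp4 (0.973), Ccdc136 (0.972) and Cacna1b (0.968), and Lyz2 to Ppef1 (0.981), Rflnb and Pcsk6 (both 0.959). Cd68 was closest to Angpt2 (0.934), Col10a1 (0.926) and Fgf10 (0.922), and Ly96 to Ube2b (0.936), Chmp1b (0.932) and Acbd5 (0.913).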

How the data were processed

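The deposited file holds raw read counts per gene for 18 libraries, which the authors made with STAR and featureCounts on GRCm38 (mm10), per the submitters' processing notes, with no normalisation. Versions, annotation release, strand setting and the handling of multi-mapping reads were not given in the sources used here. Of 32285 identifiers, 32158 were named from GENCODE mouse release M21, and the 127 without a name took 0.029% of counts. Gene length was used for TPM only.

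All 18 libraries were fitted together in edgeR 4.0.16 (R 4.3.3): filterByExpr left 15072 genes, TMM scaled the totals, and group means were compared by the two-sided quasi-likelihood F test with Benjamini-Hochberg adjustment over all 15072 genes at 0.05. CPM use TMM-scaled totals. The fit was run on simulated counts drawn from the naive means, with few genes changed, none of them scarce, and in the FGF2 group only. That setting cannot test the scaling where many genes move, or the calls of genes with few counts. Counting intervals are exact 95% intervals. No pair of replicates was identical.

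The 8 genes and the lists were chosen with earlier results of these data known. From each list up to 4 genes with the largest change past the threshold qualified for naming, with Tlr1, Tlr6, Cd36, Lbp, Myd88, Tirap, Ticam1, Ticam2, Tyrobp, Mrc2, Lyz1, Lamp1, Lamp2, Csf1r, Ptprc, Adgre1, C1qa and Spi1 always eligible. Of these the text names those that bear on the 8 genes. Cnpy4, Mavs, Ccl2, Ccl7, Ptgs2, Pdgfra and Vim were named to spell out counts with FGF2, after their values were seen. Ly6g and Itgb2 met the rule as a marker and by likeness of pattern, which was Pearson's r of log2 CPM with a prior count of 2 among genes of at least 5 CPM in a group. One gene near in pattern is not reported here. Alternatives were DESeq2 1.42.0, limma-voom (limma 3.58.1), other scalings, no filter, a replicate block and leaving out each library. Promoters are RefSeq's for GRCm38.p6.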

Additional observations from a re-analysis of the deposited data

Results flagged for a closer look

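For the genes named next, the effect of FGF2 differed between cells with and without OPN, by the interaction term of the edgeR fit. That term called 51.2% of all tested genes. For the 8 genes the values are a description, and the Cd68 call was lost in 11 of 24 other settings. Among the 8 genes the term was -0.89 for Cd14, 1.47 for Tlr2, -0.42 for Tlr4, -0.75 for Ly96, -0.69 for Cd68, -3.37 for Mrc1 and -4.89 for Cd300lb (log2). Among the genes around them it was 1.33 for Tlr6, 4.99 for Lbp, 1.13 for Myd88, -0.61 for Tirap, 0.70 for Ticam1, 0.44 for Lamp2 and 1.61 for Csf1r.

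The effect of OPN differed between STIA and naive cells, by the test of that difference. The values, STIA minus naive, were 0.72 for Tlr2, -0.38 for Tlr4, -1.41 for Lyz2 and -0.97 for Cd68. They were 1.38 for Lbp, 0.58 for Myd88, 0.40 for Ticam1 and -0.40 for Lamp1. For Lbp the OPN effect alone passed neither in naive cells (-0.28) nor in STIA cells (1.10). Groups of 3 libraries are too small for a check of single outlying libraries.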

How the results depend on the processing

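Over 24 other settings, 1657 of 1728 values of the 8 genes kept their direction and side of the threshold, 44 lost the call, 7 gained it and 20 changed sign. The 8 FGF2 calls held in all 24. OPN in STIA cells called 327 genes, 948 with no low-count filter, 626 with DESeq2 and 38 to 615 with 1 library left out (81 without STIA replicate 2, and 76, 44 and 112 without STIA OPN replicates 1, 2 and 3). Of the 8 genes, OPN passed 6 in naive cells, and 3 to 6 with 1 library left out (3 without naive replicate 2). STIA passed 3, and 1 to 3 (1 without naive replicate 3 or STIA replicate 2). OPN in STIA cells passed 0, and 1 (Cd300lb) with no filter. The difference of OPN effects passed 4, and 2 to 5 (2 without naive replicate 2 or STIA replicate 2). Signs changed only for values that did not pass, all of them near 0 except Cd300lb with OPN (0.88). With library totals, Mrc1 was 0.02 for both factors against none and Ly96 0.08 for both against OPN, and Tlr2, at 0.29, then passed against OPN. Leaving out 1 library gave, for OPN in naive cells, Cd300lb -0.93 to 1.61. For both factors against none it gave Mrc1 -0.26 to 0.07, and against FGF2 Tlr4 -0.16 to 0.04 and Cd68 -0.01 to 0.11. For STIA it gave Tlr4 -0.12 to 0.03 and Ly96 -0.27 to 0.11. For OPN in STIA cells it gave Tlr4 -0.07 to 0.01, Ly96 -0.12 to 0.27, Lyz2 -0.17 to 0.09 and Mrc1 -0.53 to 0.03. The cause was not tested. Library totals shift the median of all genes by 0.14 for both factors against none and by 0.12 against OPN.

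Replicate numbers did not pair the libraries: of 45 same-numbered pairs, 6 had a correlation of deviations over 0.1, in a range of -0.205 to 0.233. With a replicate block, FGF2 called 8509 genes and 8609 without it. Cd68's interaction, -0.69, then lost its call. Below about 0.109 CPM a level rests on at most 3 counts, which limits Cd300lb in some libraries of the unstimulated naive, naive OPN and STIA OPN groups. In unstimulated STIA libraries it had 16, 13 and 13 counts.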
